A study of Mus musculus with 12 samples.

Results

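The aminoacyl-tRNA synthetases are the enzymes that load each amino acid onto its tRNA. Their transcripts were followed across cultured mouse nephron progenitor cells (NPC), and members were taken by gene symbol, with no level or difference entering the rule. The rule found 35 of the 54184 genes in the tables. The 18 cytosolic members were Aars, Cars, Dars, Eprs, Farsa, Farsb, Gars, Iars, Kars, Mars, Qars, Rars, Sars, Tars, Tarsl2, Vars, Wars and Yars. The 17 mitochondrial members included Aars2, Cars2, Ears2, Fars2, Hars2, Iars2, Lars2, Mars2, Nars2, Pars2, Rars2, Sars2, Tars2, Vars2, Wars2 and Yars2. The cytosolic enzymes for histidine, leucine and asparagine were not analysed here.

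Bulk poly-A RNA was sequenced from 12 wild-type libraries, 3 in each of 4 culture groups. In 2 groups the cells received a drug for 24 h in DMEM-based medium with serum replacement and 200 ng/mL FGF2. The drug was YN1 at 20 µM, an inhibitor of the glycolytic regulator PFKFB3, or CHIR99021 (CHIR) at 3.5 µM, an inhibitor of the kinase GSK3 that switches on WNT signaling. The other groups were a DMEM control, whose supplements are not described in the study's text, and a control in nephron progenitor expansion medium (NPEM), the medium that keeps these cells as progenitors. All cells came from pooled E13.5 kidneys of CD1 females mated with Six2GFP+ or GFP- males, were isolated magnetically and were passaged in NPEM before use. The study describes the replicates as independent NPC preparations.

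Each synthetase recognises 1 amino acid and its tRNAs, and joins them at the cost of ATP. Most amino acids have one enzyme in the cytosol and another, encoded by a separate nuclear gene, in mitochondria, while Gars and Kars each supply both places. Eprs is a fusion that handles glutamate and proline, and Farsa and Farsb are the subunits of a single phenylalanine enzyme. A group of cytosolic synthetases is held with the scaffold proteins Aimp1, Aimp2 and Eef1e1 in the multisynthetase complex. When an uncharged tRNA accumulates, the kinase GCN2 (Eif2ak4) raises translation of the transcription factor ATF4, whose known targets include several cytosolic synthetases, amino acid transporters and enzymes that make serine and asparagine.

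Values are TPM, each transcript's share of a library scaled for transcript length. TPM holds no read count, so the depth of a library is unknown. Libraries summed to 969477 to 973162 TPM and 13754 to 14569 genes reached 1 TPM. Six2, the defining factor of NPC, was present in every library, at 27.2 to 175 TPM. The summed level of 8 progenitor markers was 252 to 694 TPM with YN1, 166 to 473 TPM with CHIR, 321 to 712 TPM in DMEM and 459 to 744 TPM in NPEM. A list of 6 stromal markers, led by Col1a1, summed to 733 to 2027 TPM with YN1, 784 to 2323 TPM with CHIR, 784 to 1772 TPM in DMEM and 592 to 1160 TPM in NPEM, and its member Foxd1 was at most 4.20 TPM. A list of 6 genes of induced nephron summed to 34.2 to 80.1 TPM with YN1, 83.9 to 237 TPM with CHIR, 28.6 to 70.5 TPM in DMEM and 22.1 to 41.4 TPM in NPEM, and its defining member Lhx1 was below 1 TPM in every library. Lists for ureteric bud, endothelium and leukocytes summed to at most 54.7, 12.6 and 9.56 TPM.

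Cytosolic synthetases were abundant. The median of their 18 mean levels over the 12 libraries was 106 TPM, against 22.6 TPM for the 17 mitochondrial members. Sars, the serine enzyme, was the highest cytosolic member, with 225, 148 and 177 TPM in YN1 libraries, 296, 167 and 236 TPM in CHIR libraries, 241, 158 and 177 TPM in DMEM libraries and 170, 130 and 179 TPM in NPEM libraries. Its groups overlapped, and Kars followed it at a mean of 182 TPM. Tarsl2, a second gene for a threonine enzyme, was the lowest cytosolic member at 8.53 to 14.6 TPM and lay far below Tars, which had 65.3 to 192 TPM. All 35 members reached the minimum level (1 TPM in at least 3 of the 6 libraries of a comparison) in every comparison.

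**Figure D1:**
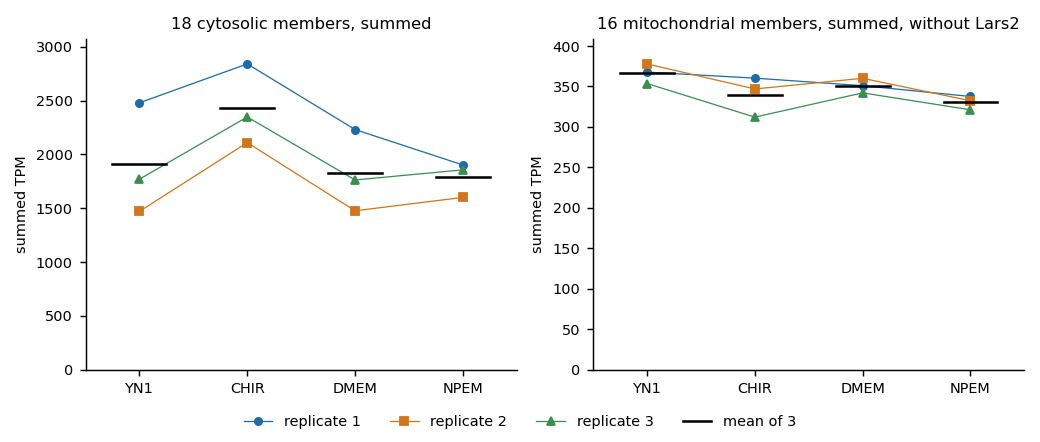
Summed TPM of the 18 cytosolic members (left) and of 16 mitochondrial members without Lars2 (right) in each library, by culture group, with lines joining libraries of the same replicate number and black bars for the mean of 3. The cytosolic sums reach 2110 to 2841 TPM with CHIR and 1601 to 1902 TPM in NPEM, while every mitochondrial sum lies between 312 and 378 TPM.

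Among the mitochondrial members, the level listed under Lars2, the leucine enzyme, stood apart. Whether reads of another transcript are counted there was not tested, since TPM holds no reads. Lars2 had 801, 1356 and 1268 TPM in YN1 libraries, 814, 1227 and 1134 TPM in CHIR libraries, 994, 1527 and 1345 TPM in DMEM libraries and 969, 1286 and 1195 TPM in NPEM libraries. In all 12 libraries this level exceeded the other 16 mitochondrial members together, so their sum is given without it. The lowest member of the family was Mars2, the mitochondrial methionine enzyme, with 2.99, 1.34 and 1.37 TPM in YN1 libraries, 2.98, 1.49 and 1.58 TPM in CHIR libraries, 1.99, 1.20 and 1.03 TPM in DMEM libraries and 2.42, 1.98 and 1.45 TPM in NPEM libraries. Neither Lars2 nor Mars2 had groups that stood clear of each other.

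The summed cytosolic level was highest with CHIR. It was 2841, 2110 and 2348 TPM in CHIR libraries, against 1902, 1601 and 1857 TPM in NPEM libraries, and these groups did not overlap. In YN1 libraries the sum was 2479, 1471 and 1770 TPM, close to the DMEM libraries of the same number at 2231, 1477 and 1763 TPM. Replicate 1 gave the highest and replicate 2 the lowest cytosolic sum in each of the 4 groups. Six2 ran the other way, with 36.0 TPM in replicate 1 and 168 TPM in replicate 2 of YN1, 27.2 and 125 TPM in those of CHIR, 47.1 and 175 TPM in those of DMEM, and 74.1 and 170 TPM in those of NPEM. What part cell composition has in these sums was not tested, and in bulk RNA fewer cells of a type and less RNA per cell cannot be told apart.

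Comparisons were made on the scale log2(TPM + 1), where a difference (LogFC) understates the change of low genes. Standard errors (SE) and two-sided p-values come from limma, with 3 libraries per group, and p was adjusted by Benjamini-Hochberg across every gene of the comparison. Libraries with the same replicate number deviated together, so each result is also given with the replicate number as a block, where it alters the outcome.

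CHIR against NPEM sets cells given CHIR in differentiation medium against progenitors held in expansion medium. Drug and medium both differ here, and their parts cannot be told apart. Cytosolic synthetase transcripts lay higher with CHIR almost throughout, while mitochondrial ones lay on both sides. Of 18 cytosolic members 17 were above 0, with a median LogFC of 0.38, and of 17 mitochondrial members 7 were above 0, with a median of -0.035 that turned to 0.067 after quantile normalization. Over the 14035 genes tested the median was -0.064 and 41.2% were above 0. No member passed an adjusted p under 0.05 in limma, where 0.378% of genes did, and 9 had an unadjusted p under 0.05, all higher, against 4.4% of genes in that direction. With the replicate block 1 member, Gars, rose, where 1.66% of genes were called, 0.698% as higher.

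Gars, the glycine enzyme, had the largest difference of the family. It had 276, 165 and 210 TPM in CHIR libraries, against 115, 87.8 and 118 TPM in NPEM libraries. Every CHIR library exceeded every NPEM library (LogFC = 0.995, SE 0.22, adjusted p = 0.135, and 0.0365 with the block). With the block, leaving out 1 library also sets aside the other library of its number, so only the other pairs remain. Gars was then not called in any of the 6 fits (adjusted p = 0.0585 to 0.219). Without replicate 3 of either group 0% of all genes were called, so those fits cannot say how firm Gars was. With the block the call was also just missed after quantile normalization (adjusted p = 0.0502).

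Cars, the cysteine enzyme, had 177, 102 and 129 TPM in CHIR libraries, against 70.5, 63.2 and 89.9 TPM in NPEM libraries. The groups did not overlap, but the difference did not pass (LogFC = 0.84, SE 0.23, adjusted p = 0.208, and 0.0996 with the block). Aars, the alanine enzyme, had 147, 99.0 and 113 TPM with CHIR, against 75.7, 67.0 and 83.2 TPM in NPEM. Its groups were also separate and it also missed the threshold (LogFC = 0.65, SE 0.18, adjusted p = 0.207, and 0.0962 with the block). Tars, the threonine enzyme, had 192, 97.3 and 152 TPM with CHIR, against 91.7, 68.4 and 82.4 TPM in NPEM (LogFC = 0.81, SE 0.26, adjusted p = 0.282, and 0.0665 with the block).

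Groups did not overlap for 8 of the 18 cytosolic members, all higher with CHIR, where 5.66% of all genes were separate in that direction. Besides the 4 above these were Iars, Yars, Mars and Rars, with a LogFC of 0.50, 0.51, 0.50 and 0.38. In 14 of the 18, CHIR exceeded NPEM in all 3 pairs of the same number, against 16.2% of all genes. Farsa, Dars and Tarsl2 lay at the other end, with a LogFC of 0.083, 0.093 and -0.10. Among mitochondrial members, 2 were separate and higher, Yars2 among them, and Vars2 was separate and lower (LogFC = -0.24), where 11.3% of genes were. The summed induced nephron markers were separate and higher with CHIR, led by Wnt4. Wnt4 had 85.8, 39.1 and 176 TPM with CHIR, against 0.799, 0.306 and 0.399 TPM in NPEM. Of the other markers on that list Cdh6 was also separate and higher, while Jag1, Pax8, Lhx1 and Fgf8 overlapped. The summed progenitor markers lay mostly lower and the summed stromal markers overlapped, as given above. What part any of these markers' cells had in the result was not tested.

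**Figure D2:**
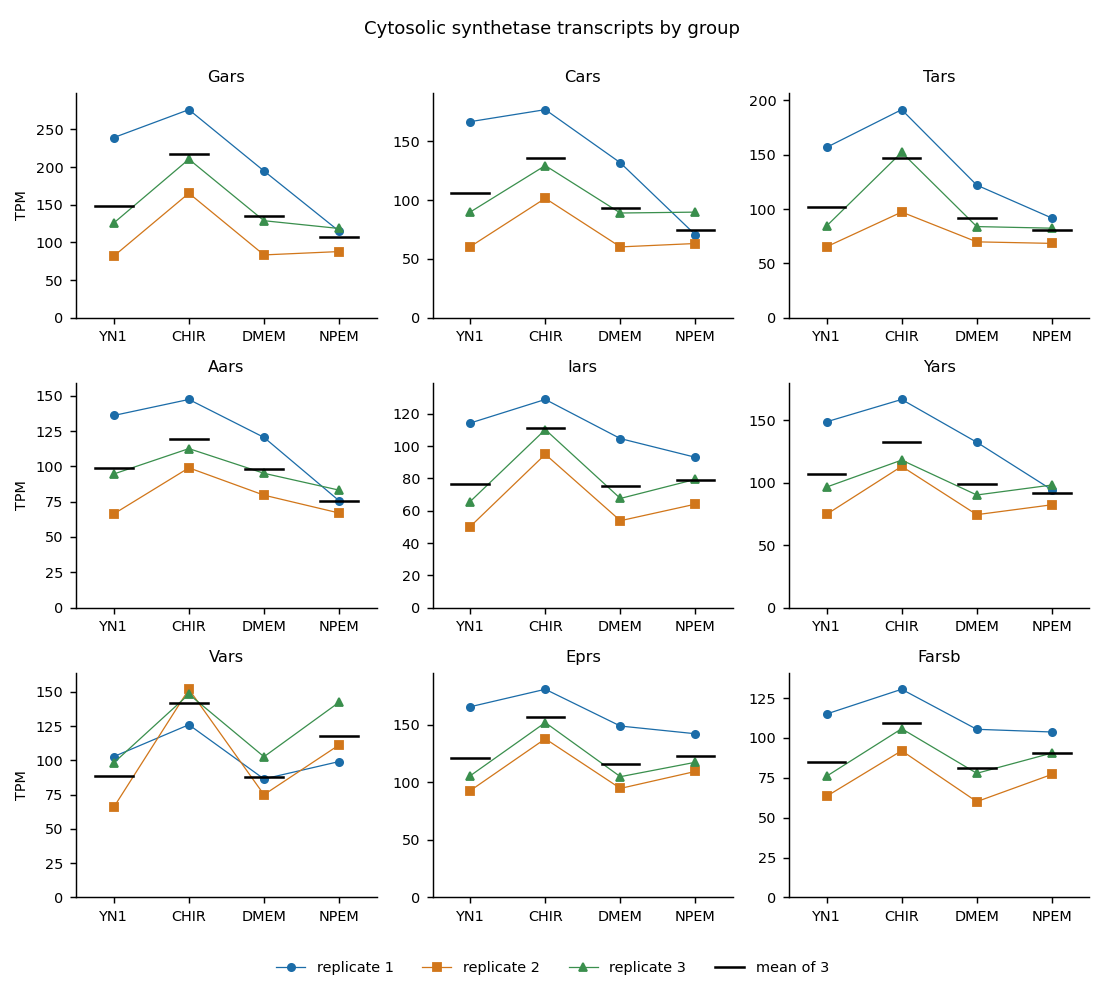
TPM of 9 cytosolic synthetases in each library, by culture group, with lines joining libraries of the same replicate number and black bars for the mean of 3. The CHIR libraries of Gars (165 to 276 TPM) lie above all NPEM libraries (87.8 to 118 TPM), and YN1 libraries follow the DMEM libraries of the same number.

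The promoters of these genes were searched for the amino acid response element, TGATGNAAN on either strand, the motif known to be bound by ATF4 together with C/EBP factors. RefSeq promoters (GRCm38.p6, 250 bases before the start to 50 after it) were matched for 28 of the 35 members, 14 in each compartment. The element was in 5 of 14 cytosolic promoters (35.7%), in 0 of 14 mitochondrial promoters and in 3.95% of all 32851 promoters. The 5 genes were Gars, Tars, Aars, Iars and Yars, and Aars held 2 matches. Stretches of 150 bases, ending 30 bases after the start, are shown for all 5 of these genes, with each match in capitals.
Gars (chr6:55037881-55038030, plus strand): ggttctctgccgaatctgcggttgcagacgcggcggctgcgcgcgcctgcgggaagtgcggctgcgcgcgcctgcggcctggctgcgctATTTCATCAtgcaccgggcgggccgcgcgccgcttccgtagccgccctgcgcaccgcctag
Tars (chr15:11399629-11399778, minus strand): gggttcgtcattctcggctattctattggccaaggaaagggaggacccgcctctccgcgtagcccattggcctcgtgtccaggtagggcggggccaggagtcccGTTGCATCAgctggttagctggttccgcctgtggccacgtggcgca
Aars (chr8:111033722-111033871, plus strand): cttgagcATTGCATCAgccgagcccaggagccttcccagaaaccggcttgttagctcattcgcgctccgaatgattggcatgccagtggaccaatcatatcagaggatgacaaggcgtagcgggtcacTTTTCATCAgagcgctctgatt
Iars (chr13:49682010-49682159, plus strand): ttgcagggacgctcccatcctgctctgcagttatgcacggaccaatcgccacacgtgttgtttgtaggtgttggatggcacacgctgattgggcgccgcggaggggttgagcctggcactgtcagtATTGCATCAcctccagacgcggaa
Yars (chr4:129189783-129189932, plus strand): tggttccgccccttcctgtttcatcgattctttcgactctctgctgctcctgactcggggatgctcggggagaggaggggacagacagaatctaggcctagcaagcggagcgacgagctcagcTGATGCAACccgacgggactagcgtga
In the first 4 the capitals are the reverse complement of the motif, and in Yars the motif itself.

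The 5 genes with the element had a median LogFC of 0.65 (0.50 to 0.995) for CHIR against NPEM, against 0.19 (-0.10 to 0.52) for the 9 cytosolic members whose promoter lacked it. The 4 cytosolic members without a matched promoter, Cars among them, had a median of 0.38. The cytosolic sets with and without the element also differed where no CHIR was given. Their medians were 0.15 and -0.10 for DMEM against NPEM, and 0.24 and -0.056 for YN1 against NPEM. For CHIR against DMEM the medians were 0.60 (0.28 to 0.73) and 0.34 (0.065 to 0.49), with overlapping ranges. These medians are a description with no test. The E-box CACGTG was in 4 of 14 cytosolic promoters (28.6%), 1 of 14 mitochondrial promoters (7.14%) and 7.15% of all promoters. The palindromic motif of the factor NRF1 was in 3 of 14 cytosolic promoters (21.4%), 2 of 14 mitochondrial promoters (14.3%) and 4.6% of all. A match marks letters only, and none of these motifs was measured as a bound site.

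CHIR against DMEM sets the drug against a control in the same basal medium, although the supplements of that control are not known. All 18 cytosolic members were above 0, with a median LogFC of 0.42, while 6 of 17 mitochondrial members were, with a median of -0.10 that turned to 0.12 after quantile normalization. The median over all 14313 genes was -0.15, and 34.6% of them were above 0. In limma without the block 0 members were called, where 0.252% of genes were, and 4 had an unadjusted p under 0.05, all higher, against 4.16% of genes in that direction. With the block 9 members rose, where 12.8% of genes were called, 3.36% as higher. The 9 were the cytosolic Gars, Tars, Cars, Vars, Eprs, Yars, Iars and Farsb and the mitochondrial Yars2.

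The value of Gars in DMEM libraries was 195, 83.4 and 129 TPM, so that CHIR exceeded DMEM within each number while the groups overlapped (LogFC = 0.73, SE 0.33, adjusted p = 0.29, and 0.0308 with the block). Tars had 122, 69.8 and 83.9 TPM in DMEM (LogFC = 0.66, adjusted p = 0.0312 with the block). Cars had 132, 60.3 and 89.1 TPM there (LogFC = 0.57, adjusted p = 0.0348 with the block). For all 3 genes replicate 1 of DMEM lay above replicate 2 of CHIR.

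Vars, the valine enzyme, behaved differently. Vars had 126, 152 and 148 TPM with CHIR, against 86.4, 74.9 and 103 TPM in DMEM, and the groups did not overlap (LogFC = 0.69, SE 0.16, adjusted p = 0.104, and 0.0376 with the block). Replicate 1 was its lowest library with CHIR, unlike Gars, Cars and Tars. In NPEM Vars had 99.1, 111 and 142 TPM, of which 1 library lay within the range of the CHIR libraries (LogFC = 0.28 for CHIR against NPEM). Its exons share 5.42% of their bases with an opposite-strand gene in GENCODE M1, and with reads that carry no strand the signals of the pair cannot be told apart.

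Eprs had 181, 138 and 152 TPM with CHIR, against 149, 94.8 and 105 TPM in DMEM (LogFC = 0.45, SE 0.20, adjusted p = 0.285, and 0.0442 with the block). The tyrosine enzyme Yars had 167, 113 and 118 TPM with CHIR, against 132, 74.4 and 90.2 TPM in DMEM (LogFC = 0.44, adjusted p = 0.046 with the block). Iars, which loads isoleucine, had 129, 95.0 and 110 TPM with CHIR, against 105, 53.8 and 67.6 TPM in DMEM (LogFC = 0.60, adjusted p = 0.0455 with the block). All 3 were higher with CHIR in each pair while their groups overlapped. Farsb, the beta subunit of the phenylalanine enzyme, had 131, 92.0 and 106 TPM with CHIR, against 105, 60.1 and 77.8 TPM in DMEM (LogFC = 0.45, adjusted p = 0.0471 with the block). Its exons share 10.8% of their bases with Sgpp2 on the opposite strand. Cars and Mars share 4.54% and 1.99% of theirs with Gm15580 and Ddit3.

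Its partner Farsa, the alpha subunit, had 96.0, 85.5 and 81.8 TPM with CHIR, against 70.4, 66.0 and 71.3 TPM in DMEM, with no overlap (LogFC = 0.34, SE 0.12, adjusted p = 0.203, and 0.0756 with the block). In all, 3 cytosolic members (Vars, Kars and Farsa) and Yars2 had groups that did not overlap, all higher, against 5.75% of all genes, and 15 of 18 cytosolic members were higher in all 3 pairs, against 17% of all genes. Leaving out replicate 2 of CHIR or of DMEM, again with the block, left 4 (Gars, Tars, Cars and Vars). There 2.81% and 3.26% of all genes were called as higher. Leaving out replicate 1 of CHIR or of DMEM left 0, where 0.308% and 0.231% of genes were called as higher. Without replicate 3 of either group 0 were called, at 0% of all genes.

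**Figure D3:**
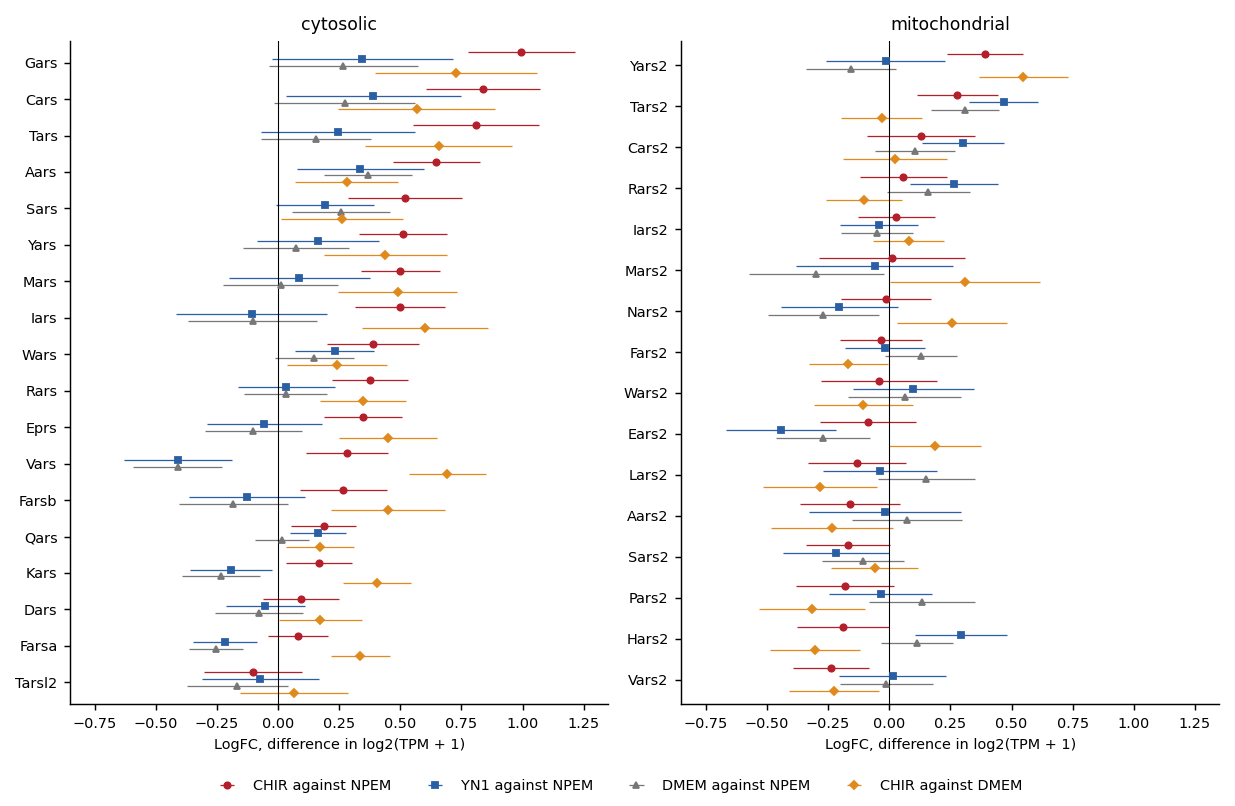
LogFC (difference in log2(TPM + 1)) with its SE for 18 cytosolic (left) and 16 mitochondrial (right) members in 4 comparisons, ordered by CHIR against NPEM. For CHIR against NPEM 17 of 18 cytosolic members lie above 0, and for CHIR against DMEM all 18, while the mitochondrial members shown lie on both sides of 0.

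YN1 against NPEM and DMEM against NPEM share the NPEM libraries and are given side by side. Cytosolic members had no common direction in either. For YN1, 10 of 18 were above 0 with a median LogFC of 0.061, and for DMEM 10 of 18 with a median of 0.012, where the median over all genes was 0.09 for YN1 and 0.088 for DMEM and 60.6% and 60.3% of genes were above 0. With 1 library left out the cytosolic median ranged over -0.13 to 0.16 for YN1 and -0.14 to 0.12 for DMEM, and quantile normalization turned it to -0.0047 and -0.045. Mitochondrial members had a median of -0.016 for YN1 and 0.073 for DMEM, which quantile normalization moved to -0.13 and -0.071. In limma 0 members were called in either comparison, with or without the block, where 0.23% of genes were called for YN1 and 0.446% for DMEM without it, and 0.754% and 6.5% with it. All 12 libraries in one fit with the block called 2 members for YN1 and 1 for DMEM, where 16.6% and 14.1% of genes were called. At an unadjusted p under 0.05 there were 2 members for YN1, Tars2 among them, and 1 for DMEM, all higher, against 9.51% and 10.8% of genes in that direction.

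Tars2, the mitochondrial threonine enzyme, had 44.2, 46.3 and 41.6 TPM with YN1 and 36.3, 43.1 and 38.9 TPM in DMEM, against 29.97, 34.1 and 30.7 TPM in NPEM. Both groups were separate from NPEM (LogFC = 0.47, SE 0.14, adjusted p = 0.21 for YN1; LogFC = 0.31, SE 0.14, adjusted p = 0.352 for DMEM). Ears2, which loads glutamate in mitochondria, lay the other way. It had 9.70, 6.84 and 7.81 TPM with YN1 and 9.92, 8.51 and 9.15 TPM in DMEM, against 12.9, 10.8 and 10.3 TPM in NPEM (LogFC = -0.44, SE 0.23, adjusted p = 0.439 for YN1; LogFC = -0.27, SE 0.19 for DMEM). For YN1 4 members were separate and higher, among them Tars2, Cars2 and Qars, against 14.2% of genes, and 2 were separate and lower (Ears2 and Farsa), against 6.99%.

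Farsa and Vars had the smallest p among cytosolic members for DMEM against NPEM. Farsa had 70.4, 66.0 and 71.3 TPM in DMEM, against 79.3, 81.2 and 87.6 TPM in NPEM (LogFC = -0.25, SE 0.11, adjusted p = 0.341). Vars, with the values given above, had a LogFC of -0.41 (SE 0.18, adjusted p = 0.347, and 0.0751 with the block) and was lower in each pair. For DMEM 2 members were separate and higher, against 15.1% of genes, and 2 were separate and lower, against 7.02%.

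**Figure D4:**
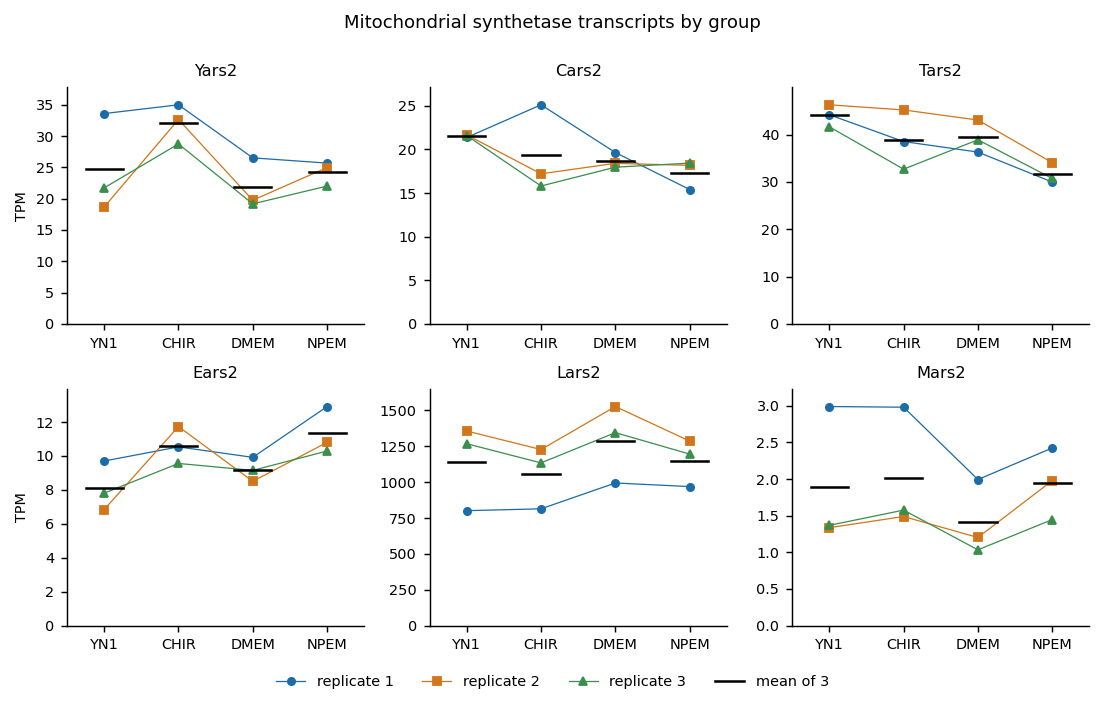
TPM of 6 mitochondrial synthetases in each library, by culture group, with lines joining libraries of the same replicate number and black bars for the mean of 3. Yars2 lies at 28.7 to 34.99 TPM with CHIR and at 22.0 to 25.7 TPM in NPEM, and Lars2 is on a scale of its own at 801 to 1527 TPM.

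YN1 against DMEM gave the smallest differences. Cytosolic members had a median LogFC of 0.05, with a range of -0.066 to 0.15, and mitochondrial members a median of 0.025, with a range of -0.19 to 0.24, where the median over all genes was -0.00085. With 1 library left out the cytosolic median ranged over -0.19 to 0.21, and over -0.0036 to 0.082 with the block as well. No member was called in limma with or without the block, at 0% of all 14500 genes, and 0 members had an unadjusted p under 0.05 without it. At that setting 0.317% of genes were higher and 0.2% lower. Cars2, the mitochondrial cysteine enzyme, had 21.4, 21.7 and 21.6 TPM with YN1, against 19.7, 18.4 and 17.97 TPM in DMEM, and was the member separate and higher, against 1.33% of genes (LogFC = 0.20, SE 0.13). Fars2, its phenylalanine counterpart, was the member separate and lower, against 1.21% of genes (LogFC = -0.15, SE 0.14). The median SE of a member was 0.21 without the block and 0.073 with it.

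YN1 against CHIR compares the drugs in the same medium. Cytosolic members were lower with YN1 in 17 of 18 cases, with a median LogFC of -0.35, against a median of 0.16 over all 14269 genes. None was called in limma, where 0.00701% of genes were, and none with the block, where 1.56% were. With all 12 libraries in one fit and the block, 10 members were called, 9 of them cytosolic and lower with YN1 and the mitochondrial Hars2 higher, where 21% of genes were called, 5.26% as lower and 15.8% as higher. At an unadjusted p under 0.05 there were 2, Vars and Kars, both lower, against 3.21% of genes in that direction. Vars had 103, 65.8 and 98.2 TPM with YN1, against 126, 152 and 148 TPM with CHIR, with no overlap (LogFC = -0.69, SE 0.20, adjusted p = 0.231, and 0.0917 with the block). In 15 of 18 cytosolic members YN1 lay below CHIR in all 3 pairs, against 15.7% of all genes. Mitochondrial members had a median of 0.11, and 11 of 17 were above 0, but quantile normalization turned that median to -0.13.

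Yars2, the mitochondrial tyrosine enzyme, was the mitochondrial member called for CHIR against DMEM with the block. It had 34.99, 32.6 and 28.7 TPM with CHIR, against 26.5, 19.8 and 19.2 TPM in DMEM and 25.7, 24.98 and 22.0 TPM in NPEM. The CHIR libraries were clear of both controls (LogFC = 0.55, SE 0.18, adjusted p = 0.18, and 0.0486 with the block against DMEM; LogFC = 0.39, SE 0.16, adjusted p = 0.391 against NPEM). The YN1 libraries held 33.6, 18.7 and 21.7 TPM and overlapped all groups.

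The cytosolic members of the multisynthetase complex (Dars, Eprs, Iars, Kars, Mars, Qars and Rars) are set beside the other cytosolic members, and the difference between these sets was not tested. For CHIR against NPEM the 7 complex members had a median LogFC of 0.35, with a range of 0.09 to 0.50, and the 11 others a median of 0.51, with a range of -0.10 to 0.995. For CHIR against DMEM the medians were 0.40 and 0.44, and with the block 2 of the 7 and 6 of the 11 rose. Among the scaffold proteins, Eef1e1 had 50.2, 40.7 and 38.9 TPM with CHIR, against 27.0, 22.3 and 17.9 TPM in DMEM, and rose with the block (LogFC = 0.93, SE 0.20, adjusted p = 0.0948 without and 0.023 with it). Aimp2 had 114, 84.3 and 76.3 TPM with CHIR, against 70.4, 52.5 and 61.1 TPM in DMEM (LogFC = 0.56, adjusted p = 0.0433 with the block). The third scaffold gene, Aimp1, had 163, 146 and 144 TPM with CHIR and 163, 146 and 149 TPM in DMEM (LogFC = -0.01).

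Genes listed for the amino acid response, which works through ATF4, were set beside the family. Charging of tRNA was not measured, so these 15 genes cannot show that uncharged tRNA accumulated. For CHIR against NPEM 14 of 15 were above 0 with a median LogFC of 0.87, against 41.2% of all genes above 0. Of these, 9 had an unadjusted p under 0.05, against 4.4% of all genes as higher, and none was called. With the block 2 of 15 rose, Asns and Chac1, against 0.698% of all genes. Asns, the enzyme that makes asparagine, had 186, 93.5 and 119 TPM with CHIR, against 29.0, 16.2 and 41.8 TPM in NPEM (LogFC = 2.20, SE 0.38, adjusted p = 0.0813, and 0.0337 with the block). Chac1, a glutathione-degrading enzyme, had 24.8, 10.4 and 21.9 TPM with CHIR, against 2.90, 0.675 and 4.85 TPM in NPEM (LogFC = 2.49, SE 0.53, adjusted p = 0.125, and 0.0245 with the block). In both genes the groups stood clear of each other.

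Atf4 transcript itself, named here after its values were seen, had 383, 279.1 and 347 TPM with CHIR, against 211, 213 and 246 TPM in NPEM (LogFC = 0.58, SE 0.15, adjusted p = 0.188, and 0.097 with the block). ATF4 is controlled largely at translation, which these data do not measure. Atf5, a related factor, had 198, 86.2 and 160 TPM with CHIR and 172, 90.9 and 149 TPM in DMEM, against 49.1, 46.5 and 80.4 TPM in NPEM. It rose in DMEM with the block (LogFC = 1.20, SE 0.30, adjusted p = 0.138 without and 0.04 with it), and CHIR and DMEM lay close (LogFC = 0.08). Atf3, a stress-induced factor of the same family, had 6.05, 2.74 and 6.11 TPM with CHIR, against 0.252, 0.933 and 1.84 TPM in NPEM (LogFC = 1.59, SE 0.41, adjusted p = 0.187). For YN1 against NPEM 12 of 15 response genes were above 0 with a median of 0.54 and 0 were called, and for DMEM against NPEM 12 of 15 with a median of 0.48, against 60.6% and 60.3% of all genes above 0. In DMEM Atf5 and Nupr1 rose and Ddit4 fell with the block, the last 2 named after their values were seen, where 4.32% of all genes rose and 2.19% fell. For CHIR against DMEM 6 of 15 rose with the block, against 3.36% of all genes, among them Asns (LogFC = 0.98, adjusted p = 0.0467) and Atf4 (LogFC = 0.41, adjusted p = 0.0441).

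**Figure D5:**
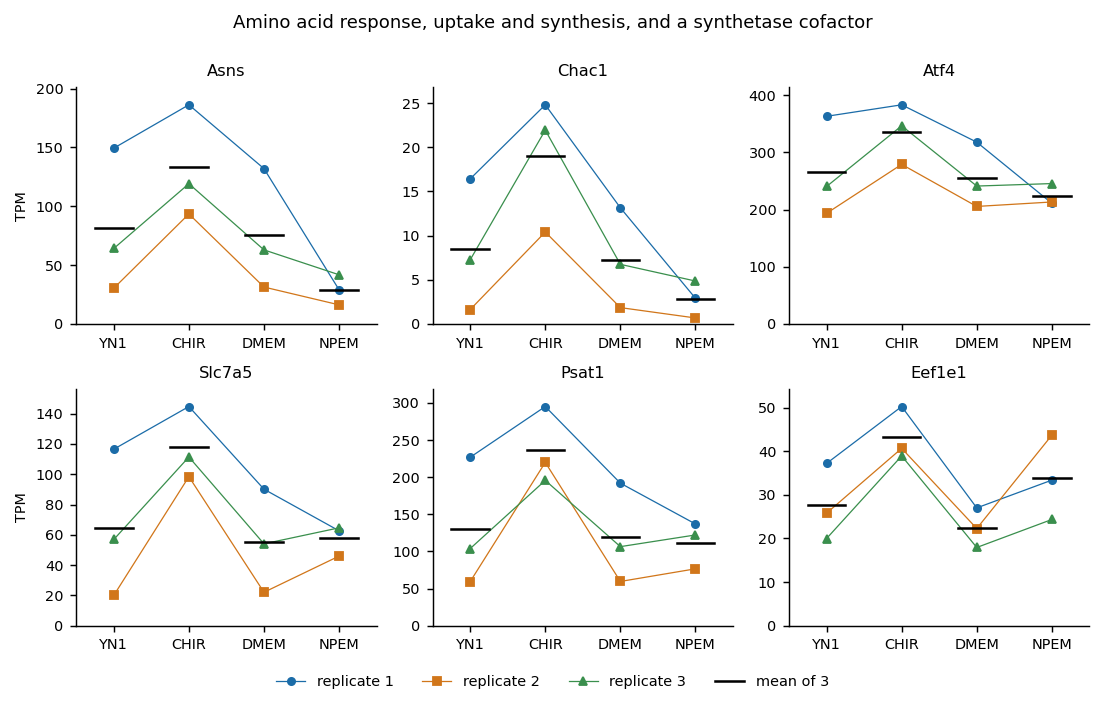
TPM of Asns, Chac1, Atf4, the transporter Slc7a5, the serine synthesis enzyme Psat1 and the synthetase cofactor Eef1e1 in each library, by culture group, with lines joining libraries of the same replicate number and black bars for the mean of 3. Asns lies at 93.5 to 186 TPM with CHIR and at 16.2 to 41.8 TPM in NPEM, with YN1 and DMEM libraries spread between 30.4 and 149 TPM.

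Amino acid transporters bring the substrates of these enzymes into the cell. For CHIR against NPEM 10 of 12 were above 0, with a median LogFC of 0.45, against 41.2% of all genes, and 2 rose with the block, against 0.698%. Slc7a5 and Slc3a2 encode the light and heavy chains of a carrier of large neutral amino acids. Slc7a5 had 145, 98.4 and 111 TPM with CHIR, against 62.7, 45.9 and 64.6 TPM in NPEM (LogFC = 1.02, SE 0.20, adjusted p = 0.107, and 0.0363 with the block). Slc3a2 had 270, 167 and 195 TPM with CHIR, against 140, 96.2 and 119 TPM in NPEM (LogFC = 0.82, SE 0.22, adjusted p = 0.192, and 0.0359 with the block). Against DMEM, Slc38a1, a glutamine carrier, was separate and rose with the block. It had 36.4, 37.0 and 40.5 TPM with CHIR, against 22.4, 22.0 and 19.8 TPM in DMEM (LogFC = 0.80, SE 0.14, adjusted p = 0.0769, and 0.0297 with the block). Slc7a3, a carrier of basic amino acids, had 15.7, 7.26 and 11.6 TPM with CHIR, against 1.34, 0.729 and 4.08 TPM in NPEM (LogFC = 2.13, adjusted p = 0.135, and 0.0605 with the block). With the block 5 of 12 transporters rose against DMEM, where 3.36% of all genes did. For YN1 and DMEM against NPEM 4 and 3 of 12 transporters were above 0, with medians of -0.19 and -0.28 and 0 called, against 60.6% and 60.3% of all genes above 0.

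Enzymes that make serine, glycine and proline gave the next list. For CHIR against NPEM 10 of 11 were above 0, with a median LogFC of 0.89, against 41.2% of all genes. The unadjusted p was under 0.05 for 8, all higher, against 4.4% of genes in that direction. With the block 1 rose, Aldh18a1 of proline synthesis, named after its values were seen (LogFC = 1.07, adjusted p = 0.0245), where 0.698% of all genes rose, and against DMEM 4 of 11 did, where 3.36% of all genes rose. Psph, the last enzyme of serine synthesis, had 58.9, 39.3 and 37.5 TPM with CHIR, against 18.9, 20.5 and 21.4 TPM in NPEM (LogFC = 1.09, SE 0.21, adjusted p = 0.0971, and 0.0746 with the block). Psat1, the enzyme before it, had 295, 220 and 196 TPM with CHIR, against 137, 76.6 and 122 TPM in NPEM (LogFC = 1.10, SE 0.26, adjusted p = 0.151). Shmt1 and Shmt2 interconvert serine and glycine in the cytosol and in mitochondria. Shmt1 fell with the block in YN1 and in DMEM libraries, which had 29.3, 15.7 and 20.1 TPM and 29.7, 14.998 and 20.4 TPM, against 64.5, 50.6 and 57.9 TPM in NPEM (LogFC = -1.41, adjusted p = 0.0882 without and 0.0491 with the block for YN1; LogFC = -1.42, adjusted p = 0.0718 and 0.0227 for DMEM). Shmt2 rose against DMEM with the block, at 183, 150 and 189 TPM with CHIR and 117, 61.8 and 103 TPM in DMEM (LogFC = 0.92, SE 0.25, adjusted p = 0.0293 with the block). Shmt1 too lay higher with CHIR, at 48.3, 67.1 and 38.7 TPM, than in the DMEM libraries given above, with no overlap.

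Downstream of charging, 2 of 8 cytosolic elongation and termination factors fell in DMEM against NPEM with the block, where 2.19% of all genes fell. Without it 0 were called. Eif5a, which helps ribosomes past stalling residues, had 804, 611 and 729 TPM in DMEM, against 1078, 1106 and 1047 TPM in NPEM, and fell with the block (LogFC = -0.60, SE 0.13, adjusted p = 0.117 without and 0.0428 with it). Eef1b2, an exchange factor for the tRNA carrier eEF1A, also fell there with the block (LogFC = -0.36, adjusted p = 0.0448), and Eef1d, another such factor, did not (LogFC = -0.18). For CHIR against DMEM all 3 rose with the block (LogFC = 0.66 for Eif5a, 0.44 for Eef1b2 and 0.52 for Eef1d; adjusted p = 0.0442, 0.0479 and 0.0326), as 3 of the 8 listed factors, where 3.36% of all genes rose.

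Proteins that edit or finish charged tRNA showed no common direction. Of 11 measured, 5 were above 0 for CHIR against NPEM, with a median LogFC of -0.086, against 41.2% of all genes, and 0 were called with or without the block. Aarsd1, an editing protein for mischarged alanine tRNA, fell in DMEM with the block, at 34.9, 37.0 and 46.4 TPM against 55.5, 53.8 and 62.1 TPM in NPEM (LogFC = -0.53, SE 0.15, adjusted p = 0.183 without and 0.0459 with it). Pstk, a kinase on the route to selenocysteine tRNA, had 61.0, 54.3 and 43.4 TPM with YN1, against 31.1, 40.8 and 33.3 TPM in NPEM (LogFC = 0.57, SE 0.19, adjusted p = 0.241). Of the 8 mitochondrial translation factors all were above 0 for CHIR against NPEM, with a median of 0.098 and 0 called, against 41.2% of all genes above 0. Mtif3, an initiation factor of mitochondrial ribosomes, had the smallest p among them for YN1, with 26.4, 28.3 and 20.0 TPM against 19.4, 17.4 and 13.49 TPM in NPEM (LogFC = 0.54, SE 0.22, adjusted p = 0.331).

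The members differed in how far they ranged over the 12 libraries. The ratio of the highest to the lowest library had a median of 2.20 for cytosolic members, with Gars at 3.38, Cars at 2.94 and Tars at 2.93 at the top and Qars at 1.397 at the bottom. For 15 of 18 cytosolic members the highest library was replicate 1 of CHIR, and for 14 the lowest was replicate 2 of YN1 or of DMEM. Mitochondrial members had a median ratio of 1.68, with Iars2 at 1.27 the steadiest of the family, although 22.7% of its exonic bases are shared with Rab3gap2 on the opposite strand. Within groups the median coefficient of variation of cytosolic members was 28.8% with YN1, 15.9% with CHIR, 21.7% in DMEM and 13.8% in NPEM (n = 3 each).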

How the data were processed

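The authors sequenced non-stranded poly-A libraries (SMARTER kit), ran FastQC, STAR, RSEM and Kallisto with the builds mm9 and mm10 (versions and annotation not given in the sources used here), and deposited TPM per library collapsed to genes. Read length is given differently in the labels and the methods. The tables also hold the authors' own effects and q-values, which were not used. TPM was read as deposited. TPM holds no counts, so depth and its precision are unknown.

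Each of 6 comparisons used the 6 libraries of its groups, kept genes that reached 1 TPM in 3 or more of these, took log2(TPM + 1), and fitted limma 3.58.1 (lmFit, then eBayes with a trend) under R 4.3.3. The p-values are two-sided, Benjamini-Hochberg was applied across every gene kept, and calls were made at 0.05. Scripts were tested on simulated data. Whether a replicate number pairs libraries was examined over 15680 genes. Deviations from group means correlated at 0.349 to 0.689 in all 18 same-number pairs, so the replicate block is reported beside the fit without it. The 36 other pairs lay at -0.452 to -0.0698. Those values are no separate support for pairing. Deviations cancel within a group, so positive same-number values push the others down. The labels' replicate 1 is the library whose title carries no number. P-values measure only the spread between these preparations.

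The synthetases were picked out as a family, and the other gene lists drawn up, with earlier results of these data known, although each was filled by gene symbol. Named members were those called with or without the block, those with the 3 smallest p in each comparison with NPEM, and the highest and lowest of each compartment, and up to 4 genes of each other list by smallest p. Alternatives were the block, quantile normalization, no filter, a mean of at least 5 TPM, a pseudocount of 0.1, all 12 libraries in one fit with and without the block, no trend and each library left out. The block with quantile normalization or with a library left out was added after seeing the data. Promoters are from RefSeq (GRCm38.p6), and exon overlaps from GENCODE M1 on NCBIM37. Protein signatures were not analysed here. The values of 1 mitochondrial member are not reported here, though it stays in the counts and medians. Tables and figures used Python 3.11.15, pandas and matplotlib 3.10.9.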

Additional observations from a re-analysis of the deposited data

How the results depend on the processing

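Without the block no alternative called a member, and every call came from a fit with it. The replicate block called 1 member for CHIR against NPEM and 9 for CHIR against DMEM, against 0 without it, and changed no other call. All 12 libraries in one fit with the block called 7 for CHIR against NPEM, all higher (10.7% of all genes called, 4.14% as higher). That fit called 2 for YN1 against NPEM (16.6%) and 1 for DMEM against NPEM (14.1%). For CHIR against DMEM it called 11, Lars2 as lower and the others as higher (24.5%, 6.18% as higher). For YN1 against CHIR it called 10 (21%). The block with quantile normalization, chosen after seeing the data, called 7 for CHIR against DMEM, 6 higher and Lars2 lower (7.87% of all genes, 3.68% as higher). The block with 1 library left out was also added afterwards. It called 0 to 1 for CHIR against NPEM, where 0% to 2.16% of all genes were called. For CHIR against DMEM it called 0 to 4, where 0% to 9.6% were. Leaving out 1 library with the block also sets aside the other library of its number.

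Quantile normalization moved the median of all genes by over 0.1 in CHIR against DMEM (to 0.0042), YN1 against CHIR (to -0.0031), YN1 against NPEM (to -0.015) and DMEM against NPEM (to -0.015), and turned the median LogFC of mitochondrial members to 0.067 for CHIR against NPEM, -0.13 for YN1 against NPEM, -0.071 for DMEM against NPEM, 0.12 for CHIR against DMEM and -0.13 for YN1 against CHIR, with or without the block. No direction is therefore drawn for mitochondrial members as a group. With 1 library left out, their median ranged over -0.099 to 0.051 for CHIR against NPEM, -0.0053 to 0.11 for YN1 against NPEM (-0.058 to 0.10 with the block, 0.032 without replicate 2 of either group), 0.0096 to 0.089 for DMEM against NPEM (-0.019 to 0.067 with the block), -0.046 to 0.070 for YN1 against DMEM (-0.033 to 0.051 with the block) and 0.052 to 0.15 for YN1 against CHIR (0.061 to 0.14 with the block, 0.069 without replicate 2 of either group). The cytosolic median stayed above 0 for CHIR against both controls and below 0 for YN1 against CHIR, at 0.30 to 0.47 for CHIR against NPEM, 0.26 to 0.57 for CHIR against DMEM and -0.59 to -0.20 for YN1 against CHIR. TPM hides depth, so the precision of low members such as Mars2 is not known.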

Other observations

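Some mitochondrial members ran against the cytosolic sum between replicates, and others did not. The level listed under Lars2, for which reads of another transcript were not tested, was lowest in replicate 1 and highest in replicate 2 of each of the 4 groups, at 801 and 1356 TPM with YN1, 814 and 1227 TPM with CHIR, 994 and 1527 TPM in DMEM and 969 and 1286 TPM in NPEM, while the cytosolic sum was highest in replicate 1 and lowest in replicate 2 of each group. Aars2, the mitochondrial alanine enzyme, was likewise lowest in replicate 1 of every group, at 8.38 TPM with YN1, 10.02 TPM with CHIR, 10.98 TPM in DMEM and 13.3 TPM in NPEM, where Aars was at 136, 147, 121 and 75.7 TPM. In NPEM Aars was higher in replicate 3, at 83.2 TPM. By contrast, Yars2, Iars2, Mars2 and Rars2 were highest in replicate 1 of every group, as was the cytosolic sum. Cars2 varied least within a group, at 21.4 to 21.7 TPM with YN1, while Cars ran over 60.5 to 167 TPM in the same libraries.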
